A study of Mus musculus with 6 samples.

Results

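The comparison described here sets leukocytes of the central nervous system from miR-155 knockout mice beside those from wild-type mice at day 0, the earliest of 3 times in a series on experimental autoimmune encephalomyelitis (EAE), an autoimmune inflammation of brain and spinal cord induced in mice. The wild-type (WT) group held C57BL/6 mice, and the knockout (KO) group held C57BL/6 mice labelled miR-155KO, with 5 mice in each group according to the series' design. How much of the gene is missing in the KO is not given in the labels, nor is it said whether day 0 mice had received any immunization. They name the tissue as brain, while the protocol also names spinal cord. Tissue was dissociated on ice and passed over a Percoll gradient, and live CD45-positive cells were sorted and made into 1 droplet library of 3' transcript ends per genotype. All barcodes with 200 or more genes and at most 10% mitochondrial reads were members. They numbered 3889, of 20007 kept cells in the 6 libraries of the series: 2211 WT cells and 1678 KO cells.

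miR-155 is a microRNA cut from the transcript of Mir155hg, a gene that is switched on in activated lymphocytes and myeloid cells. Like other microRNAs it pairs through its seed, the bases next to its 5′ end, with sites in the 3' untranslated regions (UTRs) of messenger RNAs and lowers their stability and translation. Its published targets include inhibitors of cytokine and phosphoinositide signalling and several transcription factors, and mice without it have been reported to develop milder EAE. Microglia, the resident macrophages of the brain parenchyma, make up most CD45-positive cells of the healthy brain.

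The mature strands encoded on mouse chromosome 16 (RefSeq, GRCm38.p6, plus strand) are shown because their seeds, in capitals, define what counts as a target site. The 5p strand lies at chr16:84714143-84714165 and the 3p strand at chr16:84714182-84714202.
mmu-miR-155-5p: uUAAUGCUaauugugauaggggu
mmu-miR-155-3p: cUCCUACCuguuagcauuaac
The site that pairs with the 5p seed reads AGCATTA in a messenger RNA, and AGCATTAA where an A follows it. Of 25 published targets, 16 held the 7-base site in the longest annotated 3' UTR of the mouse gene (GENCODE annotation of GRCm38), and 11 held the 8-base form. The 4 windows below, with the site in capitals, belong to the lipid phosphatase SHIP1 (Inpp5d), the transcription factor C/EBP-beta (Cebpb), the chromatin regulator Jarid2 and the haem-responsive repressor Bach1.
Inpp5d: ctgagatgtttttaaaaAGCATTAA
Cebpb: gaaccttttccgtttcgAGCATTAA
Jarid2: agaactgattttgttttAGCATTAA
Bach1: ctctctatgaacagtttAGCATTAA

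The host gene Mir155hg was close to silent at day 0 in both libraries. The WT library held 2 unique molecular identifiers (UMIs, the counted molecules) of Mir155hg among 8566827, and the KO library held 0 among 6321841. The exact 95% Poisson interval of the KO count of 0 reached 0.584 CPM (UMIs scaled to the same total in every library or class). That lies above the WT level of 0.233 CPM, so this gene could not tell the genotypes apart at day 0. The libraries of days 13 and 21 held 45 and 59 UMIs in WT and 0 and 1 in KO. The median cell had 3236 UMIs in the WT library and 3211 in the KO library, with a median mitochondrial share of 0.821% and 0.835%. Ptprc, which encodes the sorted CD45, stood at 317 CPM in WT and 305 CPM in KO. The Y-linked Ddx3y had 0 UMIs in both and Xist had 1342 and 1458 CPM. The libraries shared 5 barcodes. Each side is 1 library, so there was no test of any difference, and the 95% intervals given here cover counting error only.

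The KO library held a larger share of microglia and a smaller share of neutrophils than the WT library. Cells were placed in a class by 10 markers each: a cell took the class with the most markers detected if there were 3 or more and the next class had at most that number divided by 2. Microglia-gated cells, which carry P2ry12, Tmem119 and other markers of resident microglia, were 1357 of 2211 WT cells (61.4%, exact binomial interval 59.3 to 63.4) and 1224 of 1678 KO cells (72.9%, 70.7 to 75.1). Neutrophil-gated cells were 233 WT cells (10.5%, 9.29 to 11.9) and 74 KO cells (4.41%, 3.48 to 5.50). That is 0.418 times the WT share, with an interval of 0.325 to 0.539. When only cells with at most 1 marker of any other class were kept, 7 and 6 neutrophils remained and the ratio was 1.13. For microglia 304 WT and 432 KO cells remained, and the ratio moved from 1.19 to 1.87. A microglia-gated cell with both S100a8 and S100a9, which are neutrophil markers, is dropped by this setting. These genes were found in 882 and 875 WT and 647 and 537 KO microglia-gated cells. The setting thus selects on them and is no check of the microglia share.

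The lymphocyte shares lay closer together. T-gated cells were 132 in WT and 81 in KO (5.97% and 4.83%), B-gated cells 118 and 86 (5.34% and 5.13%), and NK-gated cells 52 and 40 (2.35% and 2.38%), and the interval of each ratio held 1. Monocyte-gated cells were 76 in WT and 39 in KO, a ratio of 0.676 with an interval of 0.462 to 0.990. With at most 1 marker of another class, 7 cells remained in each library and the ratio turned to 1.32. Among cells outside the microglia class, T-gated cells were 15.5% in WT and 17.8% in KO, B-gated cells 13.8% and 18.9%, and neutrophil-gated cells 27.3% and 16.3%. Gated cells could hold some markers of other classes, up to the limit of the gate. Cells past that limit, or with under 3 markers of any class, stayed out of every class. They were 230 WT cells (10.4%) and 127 KO cells (7.57%), with medians of 5419 and 6137 UMIs. They included 42 WT and 22 KO cells with T cell and microglia markers together. No border-associated macrophage was gated in either library. Whether the makeup followed the genotype, the dissection or the sort cannot be told apart with 1 library a side.

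**Figure D1:**
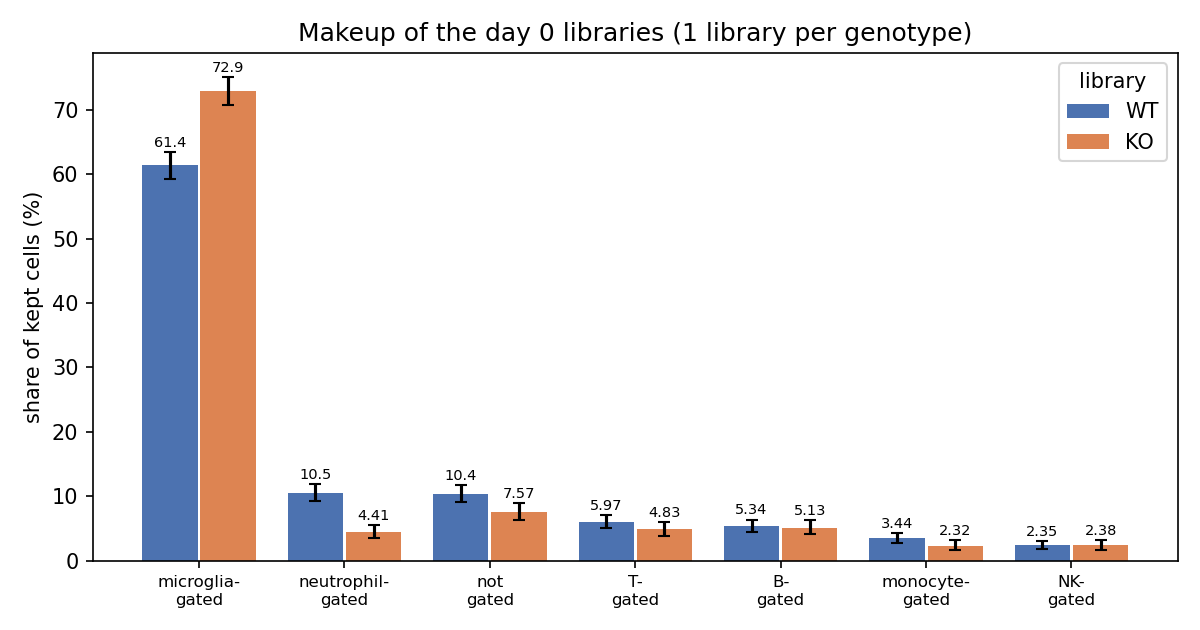
Share of kept cells (%) in each class of the WT and KO day 0 libraries, with exact 95% binomial intervals as error bars (1 library per genotype). Microglia-gated cells were 61.4% of WT and 72.9% of KO cells, and neutrophil-gated cells 10.5% and 4.41%.

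Few genes lay far apart between the microglia of the libraries. Of 7540 genes measured in microglia-gated cells (a mean of 10 CPM or more and 30 UMIs or more), 83 were 1.5-fold or more higher in KO (1.10% of those measured) and 42 were 1.5-fold or more lower (0.557%). The median log2 ratio of KO over WT was 0.00. Over all kept cells together, whose makeup differs, 243 of 7767 measured genes were 1.5-fold or more apart (3.13%). All 20 genes of microglial homeostasis were measured and 0 passed 1.5-fold, with log2 ratios from -0.08 for Sall3 to 0.19 for Tgfbr1 and a median of 0.03. The purinergic receptor P2ry12, which guides microglial processes to injury, had 4823 CPM in WT and 4904 CPM in KO. The membrane protein Tmem119 had 3141 and 3020 CPM. The scavenger-like receptor Fcrls had 2545 CPM in WT and 2835 CPM in KO. The lysosome list (15 measured), the complement list (7), the Fc-gamma receptor list (5) and the TGF-beta list (10) also had 0 members past 1.5-fold.

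**Figure D2:**
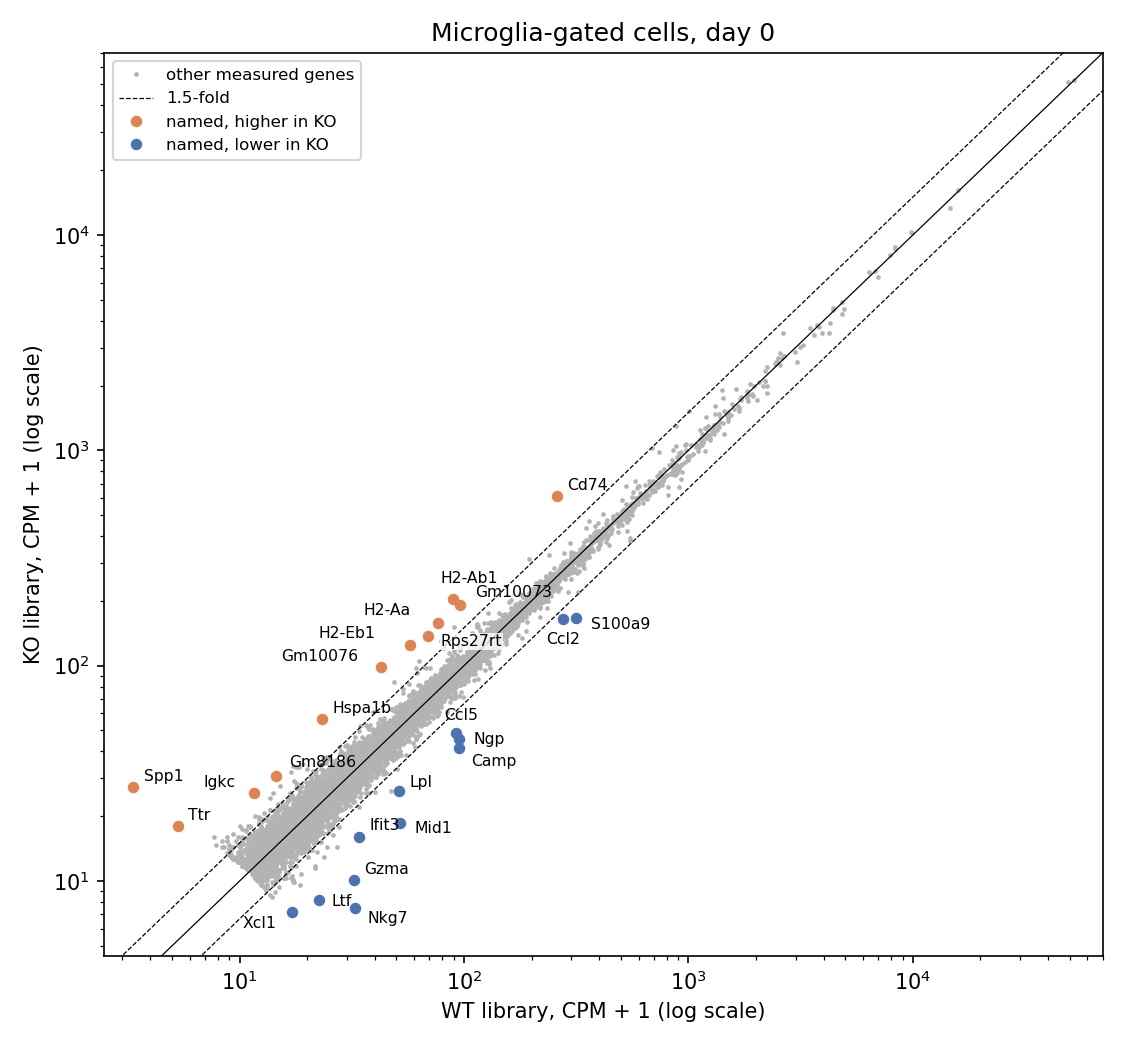
Each point is 1 of 7540 genes measured in microglia-gated cells, with its CPM plus 1 in the WT library (x axis) and the KO library (y axis) on log scales; dashed lines mark 1.5-fold. The 12 named genes above the lines were higher in KO and the 12 named genes below were lower, while 1.66% of all measured genes lay outside the lines.

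The published targets of miR-155 had values near those of other genes in microglia. Of the 25 targets, 20 were measured and 0 passed 1.5-fold, and their median log2 ratio was 0.03 beside 0.00 for all measured genes. Cebpb, which drives inflammatory myeloid genes, had 115 CPM in WT and 153 CPM in KO, 1.33 times the WT level (1.18 to 1.49). Bach1 had 40.2 CPM in WT and 53.3 CPM in KO, also 1.33 times (1.09 to 1.62). Jarid2 had 10.97 and 13.6 CPM, with an interval of 0.836 to 1.85 that held 1. Inpp5d, a brake on phosphoinositide signalling and among the best known targets, had 246 CPM in WT and 257 CPM in KO, with an interval of the ratio from 0.961 to 1.14. Fos, at the other end of the list, had 4826 and 4283 CPM. Among the 11 measured targets that carry a seed site the median log2 ratio was 0.06, and among those without a site it was 0.02.

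The comparison in microglia-gated cells was then widened to every gene with a seed site, an addition made after the data were seen. The 250 measured genes with the 8-base site had a median log2 ratio of 0.0080, the 429 genes with the 7-base site 0.010, and the 6724 genes without a site -0.00090. Past 1.5-fold were 2 genes with the 8-base site, both higher in KO: the zinc finger gene Hivep2, at 17.4 CPM in WT and 32.8 CPM in KO, and the exchange factor gene Rapgef2, at 8.39 and 13.4 CPM. Among genes with the 7-base site, Rab2b was past it upward and Lpl downward. Genes with a site had longer UTRs, with a median of 2732 bases for the 8-base class and 1020 bases for genes without a site. In T-gated cells 11 of 87 measured genes with the 8-base site were higher past 1.5-fold (12.6%), beside 6.01% without a site. Their median log2 ratios were -0.068 and -0.059. The shares higher were 4.94% and 8.05% in B-gated cells and 6.52% and 7.10% in neutrophil-gated cells. The difference between classes was not tested. The host gene, given above, had 2 UMIs in the whole WT library.

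The heat shock genes Hspa1b, Hspa1a and Hspb1 were higher in KO microglia, while most of the list was not. Heat shock proteins are chaperones that refold proteins after stress, and the Hspa1 genes are induced within minutes by heat, ischaemia or tissue handling. Hspa1b had 104 UMIs in WT microglia (22.4 CPM, 18.3 to 27.1) and 232 in KO (55.5 CPM, 48.6 to 63.1), 2.48 times the WT level (1.96 to 3.16). It was found in 93 of 1357 WT cells and 181 of 1224 KO cells. Its neighbour Hspa1a had 1007 CPM in WT and 1530 CPM in KO (1.52-fold), in 591 and 689 cells. Hspb1, the small heat shock protein Hsp27, had 60.02 and 96.1 CPM (1.60-fold), in 96 and 105 cells. These 3 were the members past 1.5-fold of 14 measured, against 1.10% of all genes in that direction, and the list median was 0.07. The constitutive chaperone Hspa8 lay on the other side, with 2243 CPM in WT and 1982 CPM in KO. Hspa1a and Hspa1b are near-identical copies, and how reads were split between them is not given in the sources used here. On days 13 and 21, in other libraries, the log2 ratio was 1.13 and 0.69 for Hspa1b and 1.37 and 0.64 for Hspb1, but -0.39 and 0.16 for Hspa1a.

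The promoters of the 3 genes are shown because each holds a pair of inverted GAA units, written GAANNTTC, of the kind that heat shock factor binds in longer arrays. The motif reads the same on both strands. Each is the stretch of 250 bases before the RefSeq transcript start (GRCm38.p6), 5′ to 3′ on the gene's strand, with matches in capitals. Hspa1a lies at chr17:34972157-34972406 and Hspa1b at chr17:34959239-34959488, both on the minus strand, and Hspb1 at chr5:135887669-135887918 on the plus strand.
Hspa1a: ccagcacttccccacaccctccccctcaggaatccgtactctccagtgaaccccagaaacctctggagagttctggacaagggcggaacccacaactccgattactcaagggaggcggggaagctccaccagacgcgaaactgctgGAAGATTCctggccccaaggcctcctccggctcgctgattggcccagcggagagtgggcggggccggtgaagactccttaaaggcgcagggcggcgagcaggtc
Hspa1b: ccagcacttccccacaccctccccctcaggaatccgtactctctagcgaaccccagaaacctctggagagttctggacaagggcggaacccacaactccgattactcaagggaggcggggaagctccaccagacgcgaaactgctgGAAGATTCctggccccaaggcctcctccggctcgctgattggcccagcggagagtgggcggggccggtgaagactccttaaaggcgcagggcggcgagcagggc
Hspb1: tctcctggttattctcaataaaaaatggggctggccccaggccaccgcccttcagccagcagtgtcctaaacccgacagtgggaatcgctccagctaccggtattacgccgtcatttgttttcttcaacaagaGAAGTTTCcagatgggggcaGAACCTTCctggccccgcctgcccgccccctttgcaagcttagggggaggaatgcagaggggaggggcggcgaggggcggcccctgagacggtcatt
Hspa1a and Hspa1b held 1 match each and Hspb1 held 2. Of 27025 mouse promoter windows of this length 6.78% held a match, counting 1 start per gene. Of the 12 heat shock genes with a promoter entry 5 did at the first listed start and 6 at any listed start. The longer element of 3 such units was in none of the 3 promoters shown, and was in those of Hspe1 and Hspd1, which had 208 and 114 CPM in WT and 218 and 108 CPM in KO microglia. A match describes letters in this window and does not show that a factor was bound.

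Genes of MHC class II, which present antigen to CD4 T cells, were higher in KO microglia as sums but were held by few cells. Cd74, the invariant chain, had 259 CPM in WT and 611 CPM in KO (2.36-fold, 2.21 to 2.53). H2-Ab1 had 88.0 and 202 CPM, H2-Eb1 56.6 and 124 CPM, and H2-Aa 75.9 and 157 CPM. These 4 of 9 measured members passed 1.5-fold upward, against 1.10% of all genes, and H2-DMa, which loads peptides, had 348 and 354 CPM. The 5 cells with most Cd74 held 71.0% of its UMIs in WT and 62.3% in KO, and for H2-Eb1 the 5 top cells held 82.9% and 72.1%. With the 2% of cells richest in each gene left out, an alternative added after the data were seen, 0 members passed 1.5-fold and the log2 ratios were 0.36 for Cd74, 0.25 for H2-Ab1 and -0.063 for H2-Aa. For H2-Eb1 this left 18 of 46 WT and 11 of 36 KO cells with the gene, too few to read a ratio from. With classes taken from clusters of cells the 4 ratios were -0.032, -0.097, -0.11 and -0.084. Microglia with UMIs of 3 or more class II genes were 20.6% of WT and 22.8% of KO cells, and 3.61% and 5.64% after thinning to 1500 UMIs. That count includes H2-DMa and H2-DMb1, found in 851 and 598 WT cells and 783 and 555 KO cells. H2-Aa was found in 70 WT and 61 KO cells.

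The chemokine Ccl2, which draws monocytes through the receptor Ccr2, was lower in KO microglia. It had 1275 UMIs in WT (274 CPM, 259 to 290) and 687 in KO (164 CPM, 152 to 177), 1.67-fold lower in KO (1.52 to 1.83). It was found in 328 WT cells and 223 KO cells, and its log2 ratio was -0.74 with all cells and -0.69 without the top cells. Ccl12, its neighbour in the same gene cluster, had 547 CPM in WT and 389 CPM in KO, short of 1.5-fold. The chemokines Ccl3 and Ccl4 had 928 and 734 CPM and 812 and 674 CPM. Of 9 chemokines measured 2 were lower past 1.5-fold, Ccl2 and Ccl5, against 0.557% of all genes, and the list median was -0.27. On days 13 and 21 the log2 ratio of Ccl2 was 0.57 and -0.60.

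Interferon-induced genes were lower in part. Ifit3, an antiviral effector, had 32.9 CPM in WT and 15.1 CPM in KO, with 58.2% and 60.3% of its UMIs in 5 cells. Isg15, a ubiquitin-like modifier, had 33.1 and 21.0 CPM, in 94 and 62 cells. Usp18, a brake on interferon receptor signalling, had 13.3 and 7.89 CPM. Of 13 measured genes of the type I interferon response these 3 were past 1.5-fold lower, against 0.557% of all genes, with a list median of -0.10, and of 9 interferon-gamma genes 0 passed. With only cells holding at most 1 marker of another class, the log2 ratio of Usp18 turned from -0.69 to 0.62. Cells with 3 or more type I genes were 20.8% of WT and 21.3% of KO microglia, and 6.78% and 6.54% after thinning. The class I gene H2-Q7 had 20.7 and 10.8 CPM, the only one of 11 measured class I genes past 1.5-fold.

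Genes of early activation had ratios a little under 1. Of 16 immediate early genes, which dissociation of tissue can also induce, 0 passed 1.5-fold, and 15 of the 16 had a log2 ratio under 0, with a median of -0.15. Ier2 was lowest, with 813 CPM in WT and 621 CPM in KO, and the phosphatase Dusp1 had 1185 and 996 CPM. The quiescence factor Klf4 had 549 CPM in WT and 379 CPM in KO, 1.45-fold lower (1.36 to 1.54). On days 13 and 21 it lay the other way, with 11.3 and 21.4 CPM in WT and 23.6 and 63.7 CPM in KO.

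**Figure D3:**
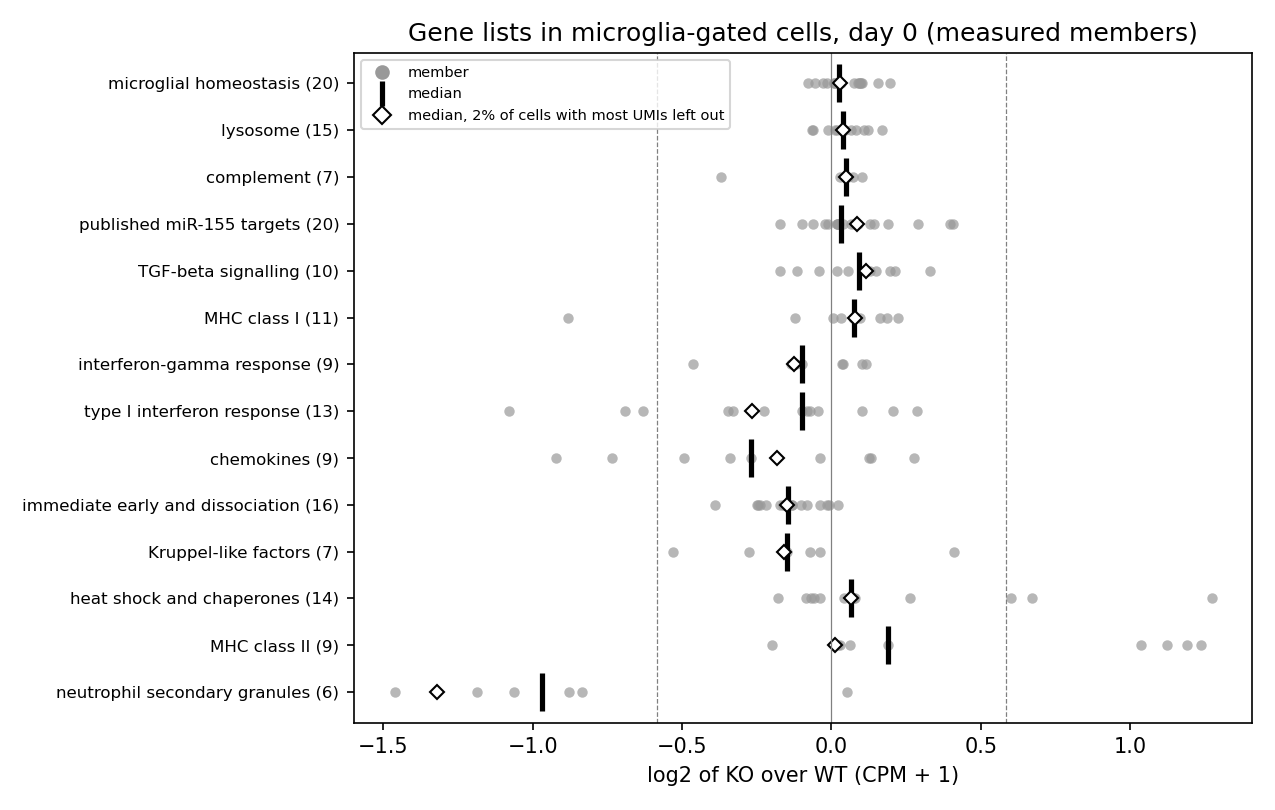
Log2 ratio of KO over WT in microglia-gated cells for the measured members (grey points) of 14 gene lists, with the list median (bar) and the median with the top 2% of cells for each gene left out (diamond); dashed lines mark 1.5-fold and the number measured is in brackets. Homeostasis genes lie between -0.08 and 0.19, while 4 MHC class II genes lie above 1.0 and 5 neutrophil granule genes below -0.8.

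Other genes furthest apart differed in how many cells held them. Mid1, a microtubule-associated ubiquitin ligase gene on the X chromosome, had 50.8 CPM in WT and 17.7 CPM in KO (2.87-fold lower, 2.20 to 3.78), in 197 and 67 cells. Its log2 ratio was -1.47, and -1.23 and 0.29 on days 13 and 21. Ttr, transthyretin, a transport protein made in quantity by the choroid plexus, had 4.30 CPM in WT and 16.98 CPM in KO, in 20 and 68 cells. Igkc, the kappa light chain of antibodies, had 10.5 and 24.6 CPM, in 45 and 73 cells, and 5 KO cells held 34.0% of its KO UMIs.

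Several more had a large part of their UMIs in few cells. Spp1, osteopontin, had 11 UMIs in WT and 110 in KO, and 5 KO cells held 93.6% of the KO UMIs. It was the single member of 15 measured disease-associated microglia genes past 1.5-fold upward, and Lpl, lipoprotein lipase, was the single one downward, with 50.1 CPM in WT and 25.1 CPM in KO. Apoe, the main lipid carrier of the list, had 851 and 1004 CPM. The granzyme gene Gzma had 31.4 and 9.09 CPM, with 75.3% of the WT UMIs in 5 of 41 cells and 13.2% of the KO UMIs in 5 of 38. Nkg7, of cytotoxic granules, had 31.8 and 6.46 CPM, and the lymphocyte chemokines Xcl1 and Ccl5 had 16.1 and 6.22 CPM and 91.4 and 47.8 CPM. The log2 ratios of Xcl1 and Ccl5 turned to 0.56 and 0.33 with classes from clusters and to 0.23 and 0.67 under the stricter gate. Summed NK markers in microglia-gated cells were 50.1 CPM in WT and 19.6 CPM in KO, with Prf1 at 0 in both, and summed T cell markers 44.7 and 21.0 CPM, with Trac and Cd6 at 0 in KO. Their part in these results was not tested.

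Neutrophil transcripts in microglia-gated cells were lower in KO, and in every compared class outside neutrophils. The calgranulin gene S100a9 had 316 CPM in WT microglia and 165 CPM in KO (1.92-fold lower, 1.75 to 2.10), in 875 and 537 cells. The granule genes Camp, Ngp, Ltf and Lcn2 had 93.8, 94.0, 21.5 and 22.8 CPM in WT and 40.6, 44.5, 7.17 and 11.95 CPM in KO. These 4 and Chil3, with 16.6 and 8.85 CPM, were past 1.5-fold lower of 6 secondary granule genes measured, against 0.557% of all genes, and Cybb, with 10.1 and 10.5 CPM, was not. With at most 1 marker of another class allowed, the log2 ratio of Lcn2 turned from -0.88 to 0.54. Lcn2, S100a9 and Ltf are themselves among the neutrophil markers, so this setting selects on Lcn2 and is no check of its ratio. The 10 neutrophil markers summed to 948 CPM in WT and 653 CPM in KO microglia, a ratio of 0.689 (0.657 to 0.723). The ratio was 0.616 (0.488 to 0.773) in T-gated cells and 0.690 (0.534 to 0.885) in B-gated cells. The neutrophil share itself was 0.418 times the WT share. Within neutrophil-gated cells Camp had 45477 CPM in WT and 34352 CPM in KO. The part of free RNA and of mixed cells in them was not tested.

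**Figure D4:**
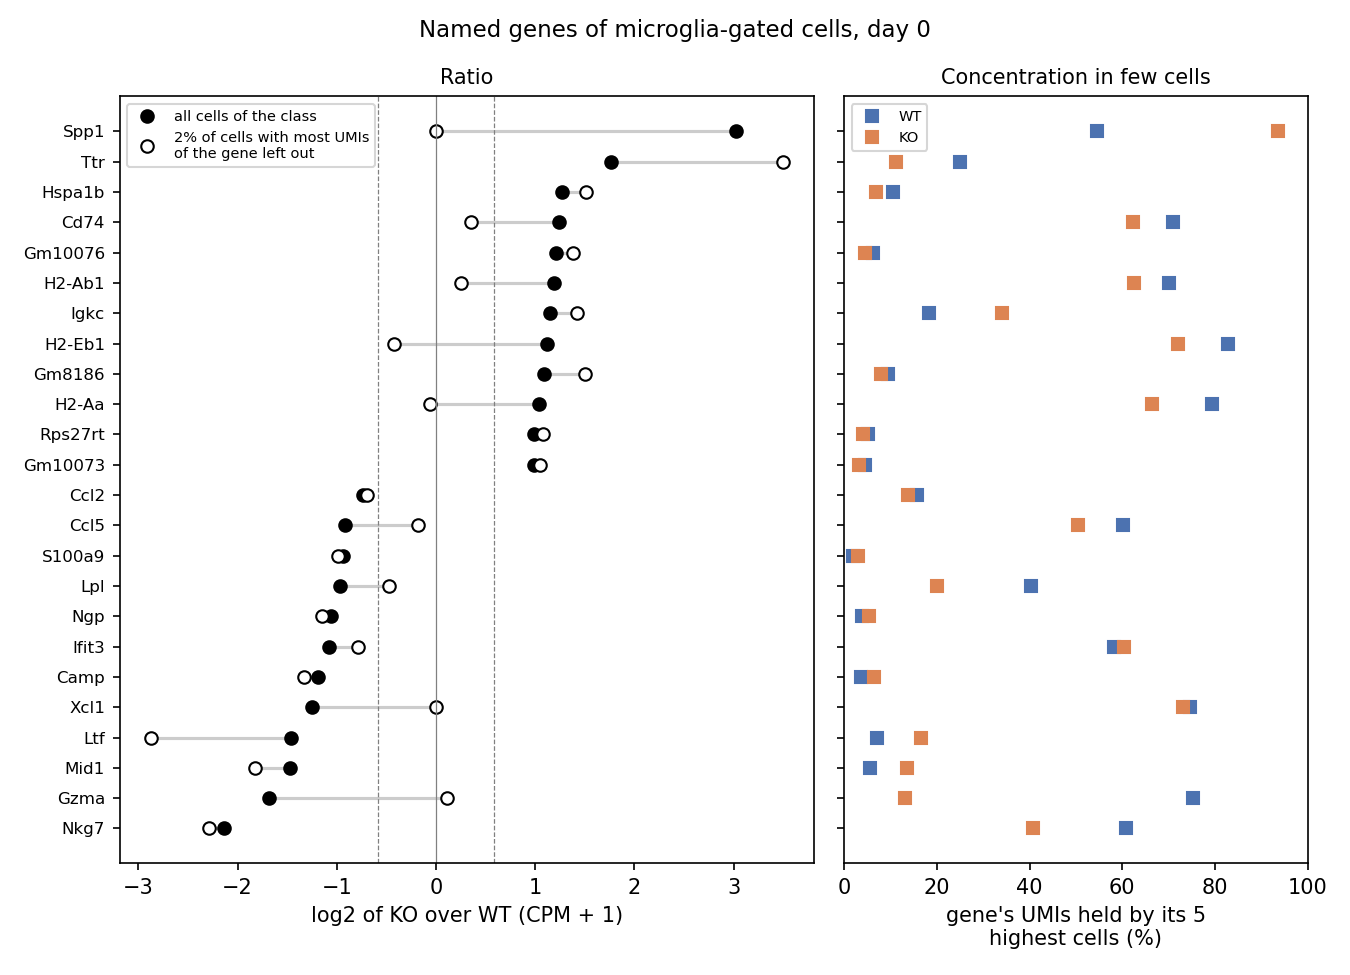
Left, log2 ratio of KO over WT for the 24 named microglia genes with all cells (filled) and with the 2% of cells richest in the gene left out (open); right, the share of each gene's UMIs held by its 5 highest cells in WT and KO. Cd74, H2-Ab1, H2-Aa, Ccl5 and Lpl move inside the 1.5-fold lines, and Hspa1b, Gm10076, Mid1, Camp, Ngp, S100a9 and Ccl2 stay outside. The removal takes 28 WT and 25 KO cells whatever the gene, so it can widen the ratio of a gene spread thinly over cells. Mid1, for example, was left in 169 of 197 WT and 42 of 67 KO cells. For such genes staying outside is no check. The open points of Spp1, Xcl1, Ttr and Nkg7 are set by the removal, which takes every cell with the gene from 1 or both libraries. Those of Gzma, H2-Eb1 and Ifit3 rest on under 20 cells a side, and that of Ltf on 5 KO cells.

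A small group of ribosomal protein gene copies was higher in KO across classes. Gm10076, a processed copy of a ribosomal protein gene, had 41.7 CPM in WT and 97.8 CPM in KO microglia (2.34-fold, 1.97 to 2.79), in 172 and 331 cells. Its log2 ratio was 1.21 in microglia, 1.37 in T-gated, 1.60 in B-gated and 2.07 in neutrophil-gated cells. Gm8186 was higher in all 3 classes where it was measured, at 1.09, 1.17 and 1.73. These were the only 2 genes past 1.5-fold upward in every class that measured them, out of 2356 genes measured in 3 or more classes. In microglia Gm10073 had 95.3 and 190 CPM and Rps27rt 68.4 and 137 CPM. The 78 measured cytosolic ribosomal protein genes themselves had 0 members past 1.5-fold in microglia, with a median of -0.07, and 7.82% of UMIs in both libraries. Reads of such copies can also come from the parent gene, so their values are uncertain. For Gm10076 the microglia log2 ratio was 0.70 and 0.76 on days 13 and 21.

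Genes of dividing and of precursor cells were higher in the B-gated cells of the WT library, and some genes of mature B cells in those of the KO library. Of 2519 measured genes 221 were higher in KO past 1.5-fold (8.77%) and 372 lower (14.8%). Of these, 107 and 200 had an interval that left out 1, together 12.2% of measured genes, and 23.5% lay apart in either direction. Of 13 measured cell cycle genes 11 were lower in KO, with a median log2 ratio of -4.92 beside -0.08 for all genes. The median was -3.08 when the 6 genes without a KO UMI were set to their bound. Top2a, the topoisomerase of dividing cells, had 107 UMIs in WT and 2 in KO. Mki67, the proliferation marker Ki-67, had 39 and 0 UMIs, at least 8.06-fold lower against a floor of 3 counts. Ube2c, Rrm2 and Birc5 had 89, 63 and 51 UMIs in WT and 0 in KO, and Stmn1 had 210 and 5. These UMIs came from few cells: Top2a from 9 WT cells, Mki67 and Ube2c from 8 each, and Stmn1 from 27.

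Precursor genes were also lower in KO. Sox4, a transcription factor of early B cells, had 666 CPM in WT and 280 CPM in KO, in 55 and 18 cells. Myb, which maintains progenitors, had 124 and 39.9 CPM, in 25 and 7 cells. Il7r, the receptor that sustains precursors, had 86.7 and 24.97 CPM, in 19 and 5 cells. The surrogate light chain genes Vpreb1 and Igll1 had 42 and 27 UMIs in WT and 12 and 5 in KO, in no more than 6 cells. Of 6 measured precursor genes 5 were lower past 1.5-fold, against 14.8% of all genes measured in these cells. B-gated cells with 3 or more precursor genes were 38 of 118 in WT (32.2%, 23.9 to 41.4) and 12 of 86 in KO (13.95%, 7.42 to 23.1), and 26.3% and 6.98% after each cell was thinned to 1500 UMIs. The same share in microglia was 0.147% and 0.0817%, at median depths of 3188 and 3207.5 UMIs beside 2195.5 and 2233.5 in B-gated cells.

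Of 12 measured genes of mature B cells 4 were higher in KO past 1.5-fold, against 8.77% of all genes measured in these cells. Past 1.5-fold lower were 0, against 14.8%, and the list median was 0.50. Ms4a1, which encodes CD20, had 1474 CPM in WT and 2332 CPM in KO (1.58-fold, 1.39 to 1.80). Fcer2a, the low-affinity IgE receptor CD23, had 180 and 310 CPM. Cd22, an inhibitory co-receptor, had 155 and 240 CPM, and Ltb, lymphotoxin beta, had 474 and 999 CPM. Ms4a1 and Cd22 are also among the markers of the B cell gate. The other members fell short of 1.5-fold, among them Cr2, the complement receptor, with a log2 ratio of -0.17. Cd74 had 14416 CPM in WT and 20207 CPM in KO, and Ighm had 6336 and 7400 CPM. The light chain gene Iglc2 had 1456 and 2966 CPM, and the class II modulator H2-Oa had 105 and 280 CPM. With classes taken from clusters, the log2 ratios of Top2a, Rrm2 and 2810417H13Rik turned to 1.13, 2.42 and 0.27. Under the stricter gate, with 38 and 28 cells left, the log2 ratios of H2-Oa and Fcer2a turned to -0.090 and -0.30 and that of 2810417H13Rik to 4.05. Of the 6 genes lowest in KO B cells, 1 had the same sign on day 13 and 0 on day 21.

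**Figure D5:**
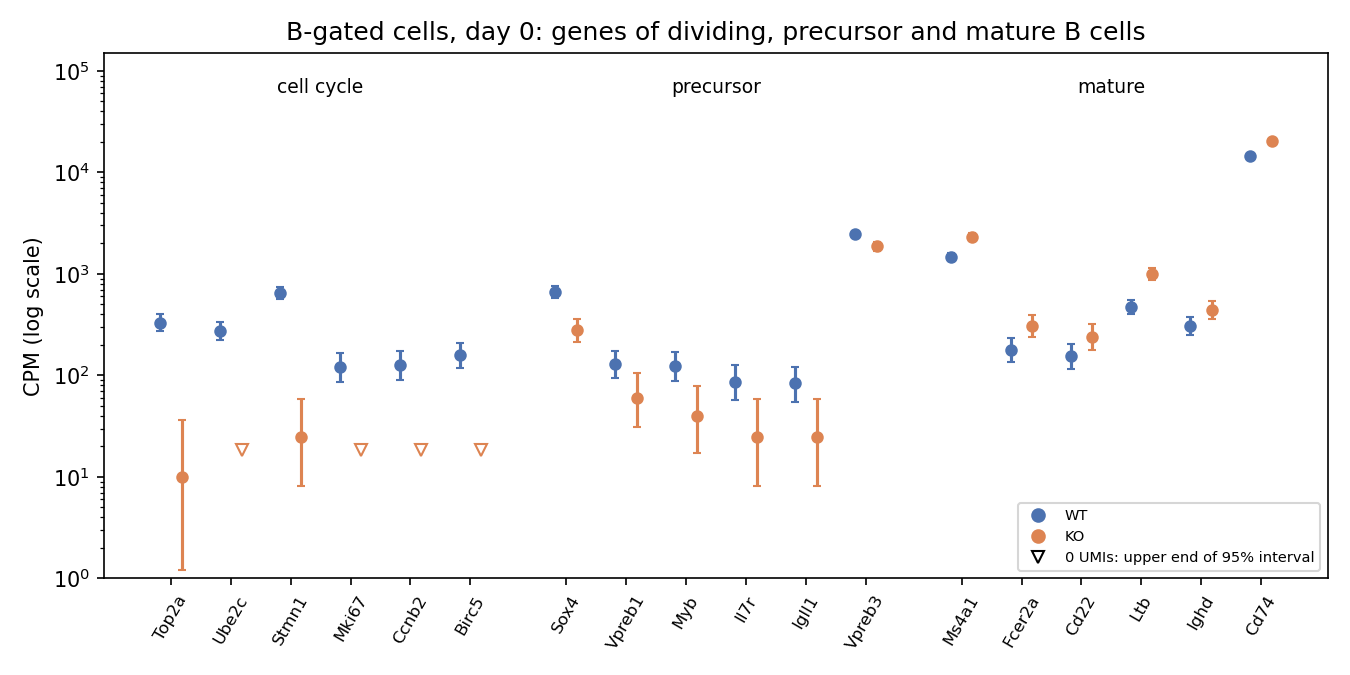
CPM (log scale) of cell cycle, precursor and mature genes in B-gated cells of the WT and KO libraries, with exact 95% Poisson intervals; open triangles mark the upper end of the interval of a count of 0. Cell cycle and precursor genes lie higher in WT, and the mature genes drawn, 4 of which passed 1.5-fold, lie higher in KO.

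T-gated cells had 189 of 2859 genes past 1.5-fold higher (6.61%) and 274 lower (9.58%), of which 78 in each direction had an interval that left out 1 (5.46% in all), and 16.2% lay apart in either direction. All 12 genes of T cell receptor signalling and all 10 naive and central T cell genes were measured, and 0 passed 1.5-fold. Ccr7, the lymph node homing receptor, had 237 CPM in WT and 277 CPM in KO, and Lef1 had 352 and 331 CPM. The CD8 chain Cd8a had 343 CPM in WT (62 cells) and 219 CPM in KO (27 cells), 1.56-fold lower (1.16 to 2.14). Its partner Cd8b1 had 814 and 575 CPM, and Cd4 had 52.1 and 50.3 CPM. Gzmk, a granzyme of memory CD8 T cells, had 31 UMIs in 10 WT cells and 2 UMIs in 2 KO cells, and its log2 ratio was -3.06 at day 0, -1.80 on day 13 and -4.28 on day 21. Nkg7 had 1177 and 885 CPM and Ccl5 3653 and 3600 CPM. Hdgf, a growth factor gene, had 185 and 64.7 CPM, in 51 and 15 cells. The gamma-delta receptor gene Tcrg-C4 had 19.5 and 86.3 CPM, in 6 and 14 cells.

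Several T-gated differences rested on a handful of cells. All 6 measured MHC class II genes were higher in KO past 1.5-fold, against 6.61% of all genes in that direction. Among them Cd74 had 771 and 2499 CPM. Its UMIs came from 11 WT and 7 KO cells, and 5 cells held 98.3% and 99.7% of them. Without the top cells, which left 8 WT and 5 KO cells with Cd74, its log2 ratio went from 1.70 to 0.05. Gzmb had 7 UMIs in 4 WT cells and 24 UMIs in 2 KO cells. Ccl4 had 174 CPM in WT and 57.5 CPM in KO, and the 5 top KO cells held 81.2% of it. Stmn1 had 98 and 9 UMIs, and 5 WT cells held 95.9%. Without the top cells, which left 6 cells a side, the log2 ratio of Stmn1 turned from -2.68 to 0.69.

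Neutrophil-gated cells had 182 of 2520 genes past 1.5-fold higher (7.22%) and 297 lower (11.8%), of which 63 and 72 had an interval that left out 1 (5.36% in all), and 19% lay apart in either direction. Granule and maturity genes stayed within 1.5-fold: 0 of 10 secondary granule genes and 0 of 13 tertiary granule and maturity genes passed, with medians of -0.16 and 0.28. Camp is given above. Ngp had 45358 CPM in WT and 40900 CPM in KO, and Retnlg, a gene of mature neutrophils, had 16781 and 20735 CPM. Of 12 immediate early genes 7 were higher in KO past 1.5-fold, with a median of 0.65, in the opposite direction from the same list in microglia; the difference between classes was not tested. Junb had 261 CPM in WT (122 cells) and 496 CPM in KO (57 cells), 1.90-fold (1.53 to 2.34). Fos had 330 and 516 CPM, Btg2 229 and 409 CPM, Klf6 123 and 236 CPM, and the chemokine Cxcl2 104 and 236 CPM. Cebpb had 118 CPM in WT and 240 CPM in KO (2.03-fold, 1.48 to 2.77). Of 9 measured targets Cebpb, Fos and Picalm were higher past 1.5-fold and Ets1 lower. Cebpb and Ets1 hold the 8-base site, Picalm the 7-base site and Fos no site. Of all genes measured in neutrophil-gated cells, 6.52% of those with the 8-base site were higher and 10.9% lower. Without a site the shares were 7.10% and 11.5%. Under the stricter gate, which left 7 and 6 cells, the list median of immediate early genes turned to -0.69, and the log2 ratios of Junb, Fos, Btg2, Cxcl2, Cebpb and Picalm turned to -0.50, -0.69, -0.15, -0.064, -0.10 and -5.93.

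Stefin A genes, which encode cysteine protease inhibitors, led the genes higher in KO neutrophils, in few cells. Stfa1 had 15 UMIs in 4 WT cells and 46 in 5 KO cells, Stfa3 26 in 7 and 33 in 3, and Stfa2l1 50 in 16 and 49 in 11. Erh, a small nuclear protein gene, had 50 UMIs in 37 of 233 WT cells and 0 in the 74 KO cells, at least 5.62-fold lower against a floor of 3 counts. Cd74 had 388 UMIs in WT and 9 in KO, with 94.8% of the WT UMIs in 5 cells, and its log2 ratio went from -3.82 to 0.051 without the top cells. Top2a had 41 UMIs in 7 WT cells and 0 in KO, and Tuba1b 113 in 18 and 5 in 4. Top2a and the cell cycle gene 2810417H13Rik were the 2 genes past 1.5-fold lower in every class that measured them, in T-gated, B-gated and neutrophil-gated cells alike. Xist was 226 CPM in WT neutrophils and 99.8 CPM in KO. Monocyte-gated and NK-gated cells numbered 39 and 40 in KO, under the 50 set for a comparison across genes, and were not compared.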

How the data were processed

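The authors deposited raw UMI counts, 1 matrix per library over 28692 genes. The notes of the submitters list Cell Ranger 2.0.2 and mm10, per the submitters' processing notes; how reads were assigned among copies is not stated there. Barcodes needed 200 genes and at most 10% mitochondrial UMIs, so 4 WT and 3 KO barcodes were dropped. Scrublet in scanpy 1.11.5 called 3 and 4 doublets where 1.77% and 1.34% of cells were expected, and these cells were kept. Classes came from 10 markers each. UMIs were summed per class and library, scaled to CPM and compared as log2 of KO over WT with a pseudocount of 1. Genes with a mean of 10 CPM and 30 UMIs were measured, and 1.5-fold was the threshold. Ratios have exact conditional intervals, shares Clopper-Pearson intervals, single counts exact Poisson intervals and ratios of shares log-normal intervals, all at 95%. Where a library had no UMI of a gene, 3 counts per class sum served as its floor. The calculation was tested on simulated data.

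Named genes were those past 1.5-fold whose interval left out 1, ranked by the bound nearest 1: the 12 highest and 12 lowest in microglia and 6 and 6 in each other class. Also named were up to 3 members of a list in each direction, genes past 1.5-fold in all of 3 or more classes, Mir155hg, Ptprc, Xist and Ddx3y; other names were chosen after their values were seen. The 36 lists and the members were chosen with earlier results of these data known. Of 436 listed genes, 431 were in the files. Alternatives varied the gate, cell filters, depth, doublets, scaling (TMM factors of edgeR 4.0.16, or the median gene), pseudocount, filter and fold.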

Additional observations from a re-analysis of the deposited data

Results flagged for a closer look

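In microglia, 7 named genes were past 1.5-fold in opposite directions at day 0 and day 21, each difference resting on 1 library a side and not tested. The log2 ratio of KO over WT was 1.24 at day 0 and -1.51 on day 21 for Cd74, 1.19 and -1.40 for H2-Ab1, 1.12 and -1.51 for H2-Eb1, and 1.04 and -1.56 for H2-Aa. It was 1.15 and -0.74 for Igkc, -1.25 and 1.57 for Xcl1, and -0.97 and 1.495 for Lpl. For Xcl1 the day 21 value comes from 1.97 CPM in KO and 0 in WT, below the level at which genes were measured, and is set by the pseudocount. Mid1 also lay in opposite directions, at -1.47 and 0.29, short of 1.5-fold on day 21. On day 21 the class held 499 WT and 1635 KO cells. The day 0 direction depended on the gate for some of these genes. With classes from clusters the day 0 log2 ratios were -0.032 for Cd74, -0.097 for H2-Ab1, -0.11 for H2-Eb1 and -0.084 for H2-Aa. Few cells held most of the day 0 UMIs of these class II genes. For Xcl1 the day 0 value turned to 0.56 with clusters and to 0.23 under the stricter gate. Igkc and Lpl were not among the genes that turned under these settings.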

How the results depend on the processing

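No paired analysis was possible because each genotype had 1 library and the labels carry no replicate numbers; for the same reason no replicate could be left out. Counts of genes past the threshold, higher and then lower in KO, moved with the filter, the fold, the depth and the gate, and the causes were not tested beyond the fewer or more genes and cells that each setting tests. At 2-fold they were 11 and 8 in microglia, 36 and 62 in T-gated, 40 and 148 in B-gated and 26 and 96 in neutrophil-gated cells. Without a filter they were 651 and 579, 2421 and 3228, 2461 and 3522, and 1892 and 3792. With a mean of 50 CPM they were 17 and 5 in microglia and 78 and 77 in neutrophils, with 158 lower in T-gated cells, and the neutrophil chemokine median turned from -0.77 to 0.28. A pseudocount of 5 gave 40 and 23 in microglia. Thinning to 1500 UMIs gave 235 and 160, 100 and 111, 103 and 177, and 96 and 137, and turned H2-DMb1 in T-gated cells to -0.81 on the log2 scale.

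With at most 1 marker of another class the KO over WT ratio of shares was 1.87 for microglia, 1.07 for T, 1.13 for neutrophil, 1.32 for monocyte and 0.659 for NK cells. Counts were then 366 and 234, 72 and 77, 59 and 56, and 9 and 18. In microglia the log2 ratios of Xcl1, Ccl5, Lcn2, Usp18 and the cytotoxic list turned to 0.23, 0.67, 0.54, 0.62 and 0.28, and in T-gated cells Gzmb to -5.47. Lcn2 is a neutrophil marker of the gate, so this setting selects on that gene itself. It also drops microglia by S100a8 and S100a9, so the microglia ratio of 1.87 is no check of that share. In B-gated cells H2-Oa, 2810417H13Rik and Fcer2a turned to -0.090, 4.05 and -0.30. In neutrophils Cxcl2, Junb, Fos, Btg2, Cebpb, Picalm and the immediate early list turned to -0.064, -0.50, -0.69, -0.15, -0.10, -5.93 and -0.69. A minimum of 4 markers turned the neutrophil chemokine median to 0.41.

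With classes from clusters, Cd74, H2-Ab1, H2-Eb1, H2-Aa, Gzma, Xcl1 and Ccl5 in microglia turned to -0.032, -0.097, -0.11, -0.084, 0.091, 0.56 and 0.33. Lower counts were 481 in T and 209 in B cells. Gzmb and H2-DMb1 in T cells turned to -0.84 and -0.39, 2810417H13Rik, Rrm2 and Top2a in B cells to 0.27, 2.42 and 1.13, and the neutrophil chemokine median to 0.70. Leaving out the top cells turned H2-Eb1, H2-Aa and Gzma in microglia to -0.42, -0.063 and 0.11, Gzmb, H2-Aa and Stmn1 in T cells to -1.66, -0.25 and 0.69, Cd74 in neutrophils to 0.051 and the neutrophil chemokine median to 0.99, and left 224 genes lower in B cells. For Gzmb this removed every KO cell with the gene, and for H2-Eb1 and Gzma it left under 20 cells a side, so those turns come from the removal. Of the values of single genes under alternatives, 1762 kept their direction within the margin set, 169 moved and 34 turned. The 2-fold threshold, the mean of 50 CPM and the setting without a filter cannot alter the ratio of a single gene. Each of them added 131 values to those that kept their direction, so the tally overstates stability. Depth limits the smaller classes: the KO neutrophil sum held 300561 UMIs, beside 4182507 in KO microglia.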
